A study of Caenorhabditis elegans with 12 samples.

Results

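Cuticlins are proteins of the insoluble layer of the nematode cuticle, and most carry a zona pellucida domain, a fold that lets secreted proteins polymerise at the apical surface of epithelia. Astacins and matrix metalloproteases are zinc proteases that cut cuticle and basement membrane proteins, and several of them act at the molt, when the old cuticle is loosened and shed. The genes described here are every row of the count table whose WormBase name begins with *cut*, *cutl* or *noah* (the cuticlin group) or with *nas* or *zmp* (the metalloprotease group). They number 81 of 45836 genes. The cuticlin group holds 37 of them, 6 *cut*, 29 *cutl* (cuticlin-like) and 2 *noah* genes, and the metalloprotease group holds 44, 38 *nas* (astacin) and 6 *zmp* (matrix metalloprotease) rows. The name chose the members, and no measured value did.

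Messenger RNA was sequenced from whole *C. elegans* of 4 genotypes, with 3 biological replicates each. The wild-type strain was N2. The single mutants carried *eat-2(ad465)* or *nhr-62(tm1818)*, and the double mutant, *eat-2;nhr-62*, carried both alleles. *eat-2* encodes a subunit of a pharyngeal acetylcholine receptor, and its mutants pump slowly, eat less and serve as a model of dietary restriction. *nhr-62* encodes a nuclear hormone receptor, and *tm1818* deletes part of the gene with the DNA-binding domain but may leave a shorter isoform with the ligand-binding domain. All animals grew on OP50 bacteria and were picked by hand as young adults that did not yet carry embryos. The comparisons asked which transcripts differ under the *eat-2* mutation and which of those differences need *nhr-62*.

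The libraries held from 18260311 to 44753083 reads counted on genes, and the members took from 0.0235% to 0.0421% of them. Levels are given as normalized counts, which are reads divided by the relative size of each library. The *nhr-62* transcript was measured at 153 ± 32 (SD, n = 3) for wild-type, 131 ± 7.14 for *nhr-62*, 144 ± 18.5 for *eat-2* and 100.2 ± 18.6 for the double mutant, so the deletion was not seen as a loss of reads over the whole gene. *eat-2* was measured at 14.2 ± 6.57, 11 ± 4.66, 3.92 ± 3.12 and 3.1 ± 2.69 in the same order. In RNA of whole animals, fewer cells of a type and less RNA per cell cannot be told apart.

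Few members were abundant. Of the cuticlin group, 26 of 37 genes passed the filter on low counts (4 *cut*, 20 *cutl* and both *noah* genes), and of the metalloprotease group 28 of 44 (24 *nas* and 4 *zmp*). These 54 genes were tested with all others, 15344 in total. Per kilobase of exon, the highest mean levels in the cuticlin group were those of *cutl-26* at 118 normalized counts per kilobase, *noah-2* at 93.1 and *cut-4* at 91.2. In the metalloprotease group *nas-20* stood at 941, *nas-11* at 699 and the matrix metalloprotease *zmp-4* at 523. The metalloprotease group was thus led by genes several times above the first of the cuticlins.

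The other 11 cuticlins and 16 metalloproteases had few reads, with at most 13 in any library for a cuticlin and at most 47 for a metalloprotease. *cut-1*, a cuticlin of the dauer cuticle, had a mean of 2.68 normalized counts over all libraries, and *cut-5*, which acts in larval alae, had 5.18. *zmp-5* had 1.87 and *zmp-6*, one of the proteases used by the invading anchor cell, had 4.08. *nas-16* and both rows named *nas-2* had no read in any library, where a count of 0 allows up to 3 reads per library, or 2.05 to 4.59 normalized counts by library. The 2 *nas-2* rows have the same exon length of 819 bases, and since the aligner kept 1 place per read, reads of near-identical copies could not be divided with certainty. *nas-40*, which only RefSeq names so, had 2 reads. *nas-17*, *nas-18* and *nas-19*, which follow each other on chromosome V, totalled 5, 9 and 3 reads. *cutl-1*, *cutl-4*, *cutl-5*, *cutl-6*, *cutl-7*, *cutl-8*, *cutl-11*, *cutl-17* and *cutl-27* had mean levels from 1.66 to 7.29 normalized counts, and *nas-10*, *nas-12*, *nas-13*, *nas-23*, *nas-24* and *nas-27* from 1.27 to 6.73. One of the untested genes stood out in a single library. *nas-15* had 56, 0 and 0 normalized counts in *eat-2* replicates 1, 2 and 3, 4.59, 17.1 and 1.89 for the double mutant, 1.03, 3.09 and 3.21 for wild-type and 2.73, 0 and 2.29 for *nhr-62*.

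The main difference was between *eat-2* and wild-type. A gene was called when the adjusted p was under 0.05, the fold change over 1.5 and the mean normalized count of the genotypes compared over 10. In the cuticlin group 9 of 26 tested genes rose and 1 fell, where 23.8% of all tested genes were called higher and 3.61% lower. In the metalloprotease group 15 of 28 rose and 1 fell. Of the tested members, 3 cuticlins (*cutl-13*, *cutl-22* and *cutl-28*) and 3 astacins (*nas-1*, *nas-6* and *nas-29*) passed the filter only through the *eat-2* libraries, where their means were highest. *cutl-28* was high in *eat-2* replicate 1 only, at 26.2, 3.7 and 6.12 normalized counts in replicates 1, 2 and 3. *cutl-13*, *nas-6* and *nas-29* are among the genes called, so the counts of calls describe the members that passed. The median log2 fold-change was 0.65 over the cuticlins and 0.886 over the metalloproteases, beside 0.059 over all tested genes. The cuticlins called higher (34.6% of those tested) lay nearer to the share of all genes than the metalloproteases (53.6%), and the 2 shares were not tested against each other or against all genes.

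**Figure D1:**
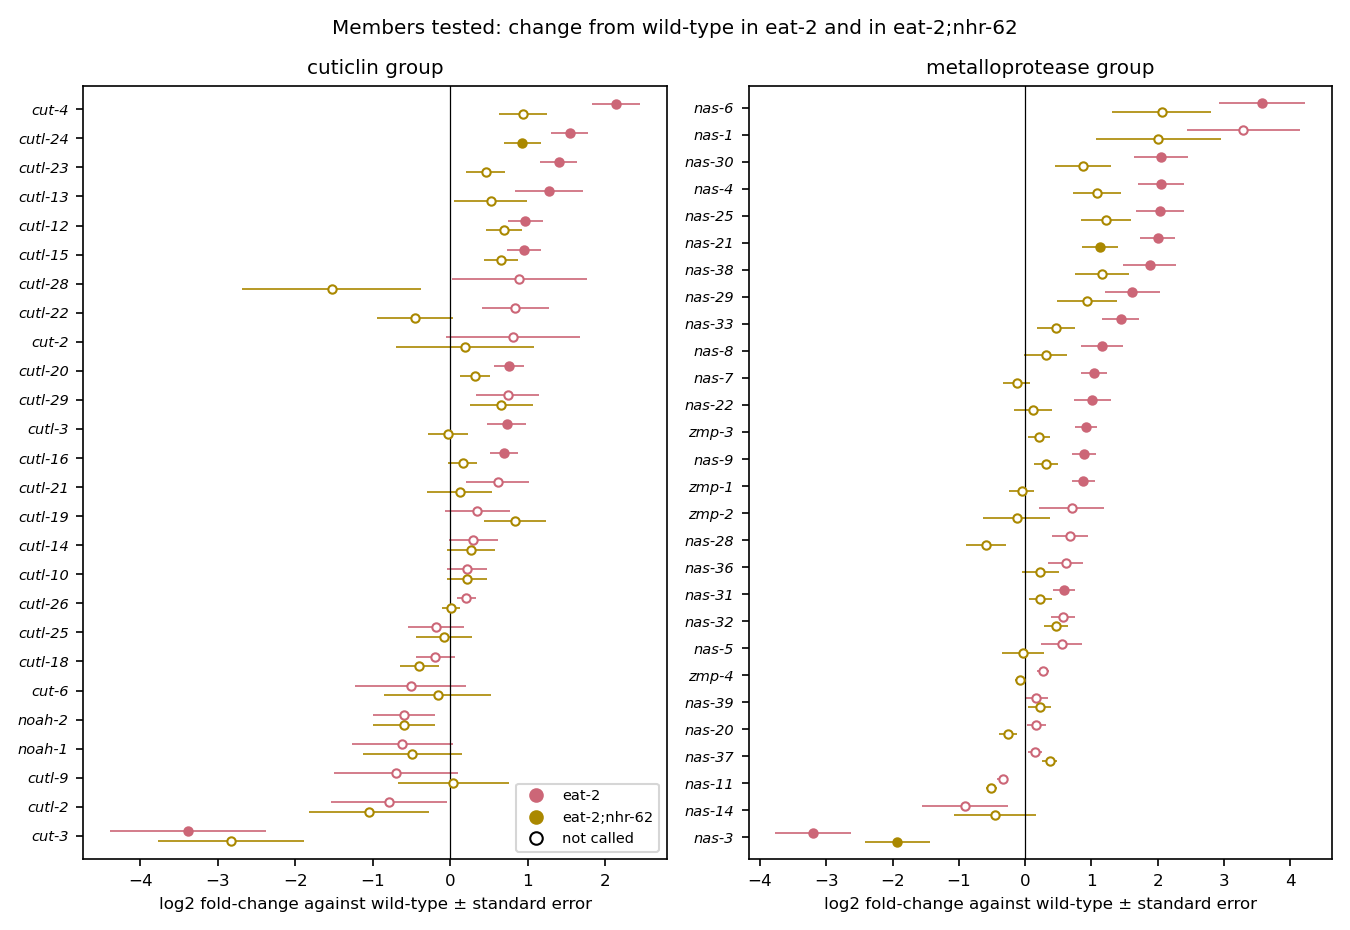
Log2 fold-change against wild-type (horizontal axis, ± standard error) of every tested member in *eat-2* (red) and the double mutant *eat-2;nhr-62* (yellow), cuticlin group left and metalloprotease group right, ordered by the change in *eat-2*, with filled points for genes called. In *eat-2*, 10 cuticlins and 16 metalloproteases are filled, and in the double mutant only *cutl-24*, *nas-21* and *nas-3* are.

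Among the cuticlins *cut-4*, a zona pellucida cuticlin, rose most. Its levels in replicates 1, 2 and 3 were 107, 51.6 and 77 normalized counts for wild-type, 85.5, 71.2 and 70.1 for *nhr-62*, 501, 265 and 276 for *eat-2* and 201, 133 and 124 for the double mutant. Every *eat-2* library lay above all others, and replicate 1 was the highest by far. The change from wild-type was 4.4-fold (log2 fold-change 2.14, standard error 0.31, adjusted p = 0.000372), and without *eat-2* replicate 1 it was still called.

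The cuticlin-like genes *cutl-24* and *cutl-23* followed. *cutl-24* measured 48.5, 60.8 and 40.6 for wild-type, 39, 62.5 and 60.2 for *nhr-62*, 181, 128 and 128 for *eat-2* and 110.3, 81.1 and 97.1 for the double mutant (log2 fold-change 1.54, standard error 0.24, adjusted p = 0.000583). The 4 genotypes formed 3 steps, with wild-type and *nhr-62* overlapping, *eat-2;nhr-62* above them and *eat-2* highest. *cutl-23* measured 32, 21.6 and 35.3 for wild-type and 94.2, 72.1 and 69.7 for *eat-2* (1.40, standard error 0.24, adjusted p = 0.000951).

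Smaller increases were called for *cutl-12* (0.97, standard error 0.23, adjusted p = 0.00481), *cutl-15* (0.95, standard error 0.22, adjusted p = 0.00392), *cutl-20* (0.76, standard error 0.19, adjusted p = 0.00676) and *cutl-16* (0.69, standard error 0.18, adjusted p = 0.0085), each log2 fold-change with its standard error. *cutl-3* and *cutl-13* completed the 9. *cutl-3* rose by 0.73 (adjusted p = 0.0275) and lost the call without any one of wild-type replicates 1, 2 and 3 or *eat-2* replicate 1, and *cutl-13* rose by 1.27 (adjusted p = 0.0287) at no more than 16 reads per library, a call lost without any one of 6 libraries, wild-type replicates 1, 2 and 3, *nhr-62* replicate 1 and *eat-2* replicates 1 and 3, and with DESeq2's Wald test (1.25, adjusted p = 0.0843). *cutl-20* missed the fold threshold without *eat-2* replicate 1 (0.57, adjusted p = 0.0257) and *cutl-16* without wild-type replicate 3 (0.52, adjusted p = 0.0363). *cutl-20* shares 221 bases of exon with *shc-1* on the same strand, and how reads in that stretch were counted is not known.

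Not all cuticlins moved this way. *cutl-26*, the most abundant per kilobase of exon, measured 190.1 ± 13.7 (SD, n = 3) for wild-type and 219 ± 8.69 for *eat-2* and was not called (log2 fold-change 0.21, standard error 0.12, adjusted p = 0.15). *cutl-10* (0.22, standard error 0.26, adjusted p = 0.478) and *cut-6*, which shapes the body and the alae of the dauer larva (-0.51, standard error 0.72, adjusted p = 0.56), were not called either. *cut-2*, which lacks the zona pellucida domain and is cross-linked through tyrosines, ranged from 2.74 in *nhr-62* replicate 1 to 91.8 in *eat-2* replicate 1 and did not pass (0.81, standard error 0.86, adjusted p = 0.438). The other tested cuticlins that were not called, apart from the *noah* genes, were *cutl-2*, *cutl-9*, *cutl-14*, *cutl-18*, *cutl-19*, *cutl-21*, *cutl-22*, *cutl-25*, *cutl-28* and *cutl-29*, with log2 fold-changes from -0.79 to 0.89.

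*cut-3*, a cuticlin of the larval alae, was the cuticlin called lower. It measured 25.8, 72.2 and 7.48 normalized counts for wild-type, 3.42, 35.6 and 38.1 for *nhr-62*, 3.58, 3.7 and 2.45 for *eat-2* and 1.53, 3.6 and 8.48 for the double mutant. All *eat-2* libraries were low, while the wild-type values were spread widely. The fitted log2 fold-change was -3.38 (standard error 1.01, adjusted p = 0.0153), and without wild-type replicate 2 it was -2.31 with an adjusted p of 0.0808.

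The member with the highest fitted fold-change was an astacin of few reads. *nas-6*, which with *nas-7* is needed to form the grinder of the pharynx, was counted 3, 1 and 1 times in the wild-type libraries and 20, 25 and 16 times in *eat-2*. In normalized counts these were 3.1, 1.03 and 1.07 for wild-type, 0, 2.89 and 2.29 for *nhr-62*, 23.8, 23.1 and 19.6 for *eat-2* and 12.2, 9.01 and 2.83 for the double mutant. The *eat-2* libraries were above all others (log2 fold-change 3.58, standard error 0.65, adjusted p = 0.00129), and through them alone *nas-6* entered the test. Summed over libraries there were 61 and 5 reads, and the ratio was 12.8 with a 95% interval for counting error of 5.2 to 40.8. *nas-1* showed similar values, 1.03, 1.03 and 3.21 for wild-type and 23.8, 14.8 and 15.9 for *eat-2*, with a ratio of 10.3 from 49 and 5 reads (95% counting interval 4.12 to 33.1), but its mean count was too low for the call. Like *nas-6*, *nas-1* entered the test through the *eat-2* libraries alone. Counting intervals leave out the spread between replicates.

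*nas-7* was more abundant and rose less. Its levels were 78.5, 93.8 and 113 for wild-type, 113, 89.5 and 96 for *nhr-62*, 156, 233 and 198 for *eat-2* and 87.3, 74.8 and 99 for the double mutant. Only the *eat-2* libraries stood above the others (log2 fold-change 1.04, standard error 0.20, adjusted p = 0.00149). The 5 pharyngeal muscle markers listed (*myo-1*, *myo-2*, *tnc-2*, *tni-4* and *ceh-22*) also all rose in *eat-2*, with a median log2 fold-change of 1.18. Their summed level ran from 13900 to 18870 normalized counts in wild-type, from 27870 to 36500 in *eat-2* and from 22700 to 28620 in the double mutant, and none was at 0. Those markers were also called higher in the double mutant against wild-type, 5 of 5 with a median of 0.77, while *nas-7* was at -0.13 there (adjusted p = 0.684) and *nas-6* at 2.06 (adjusted p = 0.0973). The part of pharyngeal RNA in the *nas-6* and *nas-7* values was not tested.

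**Figure D2:**
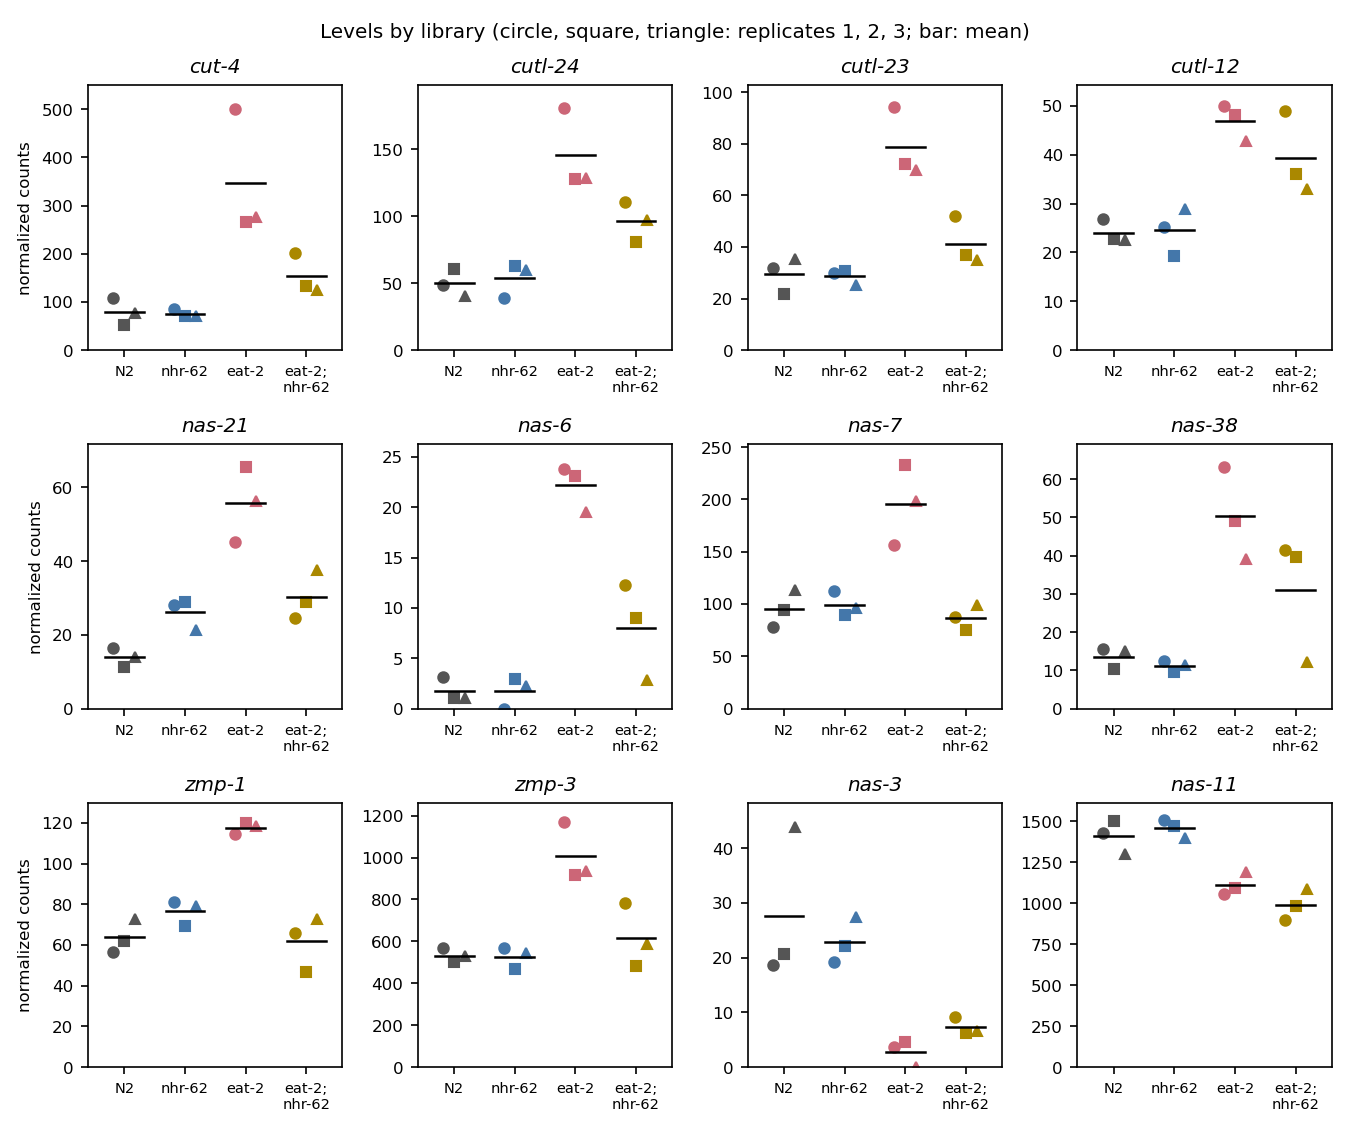
Normalized counts (vertical axis, from 0) of 12 members in each library of the 4 genotypes, with circles, squares and triangles for replicates 1, 2 and 3 and a bar at the mean. The mean of *eat-2* is the highest for the first 10 genes, while *nas-3* and *nas-11* are lower in both genotypes with the *eat-2* mutation than in wild-type and *nhr-62*.

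*nas-21* had the smallest p of all members. It measured 16.5, 11.3 and 13.9 for wild-type, 28, 28.9 and 21.3 for *nhr-62*, 45.3, 65.7 and 56.3 for *eat-2* and 24.5, 28.8 and 37.7 for the double mutant. Each genotype with a mutation lay above wild-type, and *eat-2* above all. The difference between *eat-2* and wild-type was 4-fold (log2 fold-change 2, standard error 0.26, adjusted p = 0.00024). *nas-20*, *nas-21* and *nas-22* follow each other on chromosome V. *nas-22* rose too (1.01, standard error 0.28, adjusted p = 0.0101), while *nas-20*, the most abundant astacin per length, did not pass (0.17, standard error 0.14, adjusted p = 0.319).

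Other astacins of low level rose by similar factors. *nas-30* measured 17.6, 13.4 and 10.7 for wild-type and 54.8, 53.6 and 66 for *eat-2* (log2 fold-change 2.05, standard error 0.41, adjusted p = 0.00197). *nas-25* measured 7.23, 10.3 and 8.55 for wild-type and 46.5, 38.8 and 22 for *eat-2* (2.03, standard error 0.36, adjusted p = 0.00107). *nas-4* measured 20.6, 19.6 and 23.5 for wild-type and 116, 80.5 and 68.5 for *eat-2* (2.05, standard error 0.35, adjusted p = 0.001), but it shares 437 bases of exon with *C05D11.5* on the same strand. None of these 3 genes overlapped between wild-type and *eat-2*, as was so for 59.3% of all tested genes. *nas-29*, *nas-33*, *nas-8*, *nas-9* and *nas-31* were also called higher, with log2 fold-changes of 1.62, 1.44, 1.16, 0.89 and 0.59, and *nas-31* lost the call without wild-type replicate 3, *eat-2* replicate 2 or double mutant replicate 2, as it did with the replicate number as a block (0.58, adjusted p = 0.0179) and with DESeq2's size factors or Wald test, where its change was just under the fold threshold.

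Of the tested astacins without a call, *nas-32* passed the adjusted p just under the fold threshold (0.57, standard error 0.18, adjusted p = 0.0206), and *nas-5* did not pass (0.55, standard error 0.31, adjusted p = 0.155). *nas-14* was at 12.4, 18.6 and 16 for wild-type and 21.5, 0.925 and 3.67 for *eat-2*, where replicate 1 was above every wild-type library and the others below (-0.91, standard error 0.65, adjusted p = 0.254).

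The astacins with known roles at the molt differed from each other. *nas-38*, which acts in the sleep that accompanies molting, measured 15.5, 10.3 and 15 for wild-type and 63.2, 49 and 39.1 for *eat-2* (log2 fold-change 1.88, standard error 0.40, adjusted p = 0.00275). *nas-37*, a protease of ecdysis that degrades the old cuticle and is among the abundant members, measured 1063, 892 and 964 for wild-type and 1165, 1090 and 976 for *eat-2* and was not called (0.15, standard error 0.11, adjusted p = 0.276). *nas-36*, which also acts in ecdysis, measured 43.4, 49.5 and 33.1 for wild-type and 89.4, 59.2 and 44 for *eat-2* and was not called (0.61, standard error 0.27, adjusted p = 0.0778). *nas-39*, the relative of tolloid and of the procollagen protease BMP1, stood at 143 ± 25.6 (SD, n = 3) for wild-type and 161 ± 21.3 for *eat-2* (0.17, standard error 0.17, adjusted p = 0.41), and it shares 276 bases of exon with *F38E9.1* on the same strand.

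Of the 4 matrix metalloproteases tested, *zmp-3* and *zmp-1* rose. *zmp-3* measured 567, 501 and 529 for wild-type, 569, 467 and 546 for *nhr-62*, 1168, 918 and 934 for *eat-2* and 781, 482 and 589 for the double mutant (log2 fold-change 0.92, standard error 0.16, adjusted p = 0.000947). *zmp-1*, a membrane-anchored protease of the anchor cell and vulva, measured 56.8, 61.9 and 72.7 for wild-type, 81.4, 69.3 and 79.2 for *nhr-62*, 114, 120.2 and 118.6 for *eat-2* and 65.8, 46.9 and 72.6 for the double mutant (log2 fold-change 0.88, standard error 0.18, adjusted p = 0.00249). The 3 *eat-2* values of *zmp-1* lay close together and above all others. *zmp-1* shares bases of exon with 2 genes on the opposite strand, at most 188 with either. The 6 vulva and anchor cell markers gave 2 genes higher and 1 lower in *eat-2*, beside 23.8% and 3.61% of all tested genes. These markers summed to 2809 to 3046 in wild-type and 2873 to 2932 in *eat-2*. Their part in the *zmp-1* value was not tested.

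*zmp-4*, the abundant member, passed the adjusted p but not the fold (0.27, standard error 0.09, adjusted p = 0.0242). *zmp-2* ranged in *eat-2* alone from 8.32 to 45.3 and did not pass (0.70, standard error 0.49, adjusted p = 0.238).

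A pair of astacins was lower in *eat-2*. *nas-3* measured 18.6, 20.6 and 43.8 for wild-type, 19.1, 22.1 and 27.4 for *nhr-62*, 3.58, 4.62 and 0 for *eat-2* and 9.19, 6.31 and 6.6 for the double mutant. Both genotypes with the *eat-2* mutation lay below both without it. The change in *eat-2* was called (log2 fold-change -3.20, standard error 0.57, adjusted p = 0.00111), with a ratio from 8 and 79 reads of 0.106 (95% counting interval 0.0444 to 0.22). *nas-11*, one of the most abundant members, measured 1427, 1500 and 1302 for wild-type, 1507, 1472 and 1399 for *nhr-62*, 1054, 1094 and 1192 for *eat-2* and 896, 981 and 1087 for the double mutant. It lay lower in every library with the *eat-2* mutation than in any without it. Its decrease passed the adjusted p but stayed under the fold threshold (-0.34, standard error 0.08, adjusted p = 0.00588), and *nas-11* shares 163 bases of exon with *smf-2* on the opposite strand. Reads in overlaps of genes on opposite strands cannot be assigned here, since the strand setting of the counting is not known. For overlaps on the same strand, that setting would not separate the genes.

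Other cell types were followed by their markers. For the hypodermis, which secretes cuticle, 4 markers summed to 2319 to 2500 normalized counts in wild-type and 2217 to 2650 in *eat-2*. Most of that sum was *nhr-23*, with a mean of 1754 in wild-type and 1482 in *eat-2*. In *eat-2*, 3 of the 4 markers had a positive fold-change and 1 a negative one (median log2 fold-change 0.28). None was called. For the seam cells 7 markers summed to 628 to 917 in wild-type and 566 to 671 in *eat-2*. Of 10 neuronal markers 5 were called higher and their sum ran from 12110 to 12570 in wild-type and from 14980 to 16730 in *eat-2*. All 13 oocyte and eggshell markers had a negative fold-change with 1 called, and they summed to between 345000 and 391000 in wild-type and between 245100 and 280300 in *eat-2*. Of 27 sperm markers tested 4 were called higher, and of 6 intestine markers 2. Over all tested genes 23.8% were called higher in *eat-2* and 3.61% lower. No marker of these lists was at 0 in every library. In the double mutant against *eat-2* all 13 oocyte and eggshell markers had a positive fold-change (median log2 fold-change 0.42). They summed to 354100 to 369300 in the double mutant. All 27 sperm markers tested were negative there (median -0.52). Neuronal markers were positive for 3 and negative for 7, hypodermis markers for 1 and 3, seam cell markers for 4 and 1, and intestine markers for 4 and 2. The part of these marker levels in the members' changes was not tested.

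The *nhr-62* mutation alone was compared with wild-type next. No member was called in either group by edgeR, where 0.013% of all genes were called higher and 0.0912% lower, and DESeq2's Wald test also called none. At an unadjusted p under 0.05 there were 0 of 26 cuticlins and 1 of 28 metalloproteases, beside 489 of all 15344 tested genes. The median log2 fold-changes were 0.028 and -0.002. The 1 metalloprotease was *nas-21*, whose 3 *nhr-62* libraries were all above wild-type (log2 fold-change 0.90, standard error 0.27, adjusted p = 1). *cut-4* was at -0.05, *zmp-3* at -0.01 and *nas-7* at 0.07 on the log2 scale.

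The double mutant was then compared with *eat-2*, which asks what the *nhr-62* mutation changes when *eat-2* is mutated. No member was called higher, where 0.782% of all genes were, and 2 cuticlins and 6 metalloproteases were called lower, where 4.65% of all genes were. DESeq2's Wald test called 2 and 7. How many of all genes DESeq2's Wald test called was not counted, in this or any other comparison. At an unadjusted p under 0.05 there were 8 of 26 cuticlins and 15 of 28 metalloproteases, beside 5088 of all 15344 tested genes. The median log2 fold-change was -0.267 over the cuticlins and -0.716 over the metalloproteases, beside -0.033 over all tested genes. This comparison uses the same *eat-2* libraries as that of *eat-2* with wild-type, so the 2 sets of values are not independent.

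The cuticlins called lower were *cut-4* (log2 fold-change -1.20, standard error 0.29, adjusted p = 0.031) and *cutl-23* (-0.95, standard error 0.24, adjusted p = 0.032). *cutl-23* measured 52.1, 36.9 and 34.9 for the double mutant, below every *eat-2* library and above or within the range of wild-type. *cut-4* lost the call without *eat-2* replicate 1 (-0.84, adjusted p = 0.0668), without replicate 2 and without replicate 3 of the double mutant, and *cutl-23* without any one of those 3 libraries, *eat-2* replicate 2 or *nhr-62* replicate 2. *cutl-24* at -0.61 (adjusted p = 0.0945) and *cutl-16* at -0.53 (adjusted p = 0.0751) did not pass.

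The metalloproteases called lower were *nas-7* (log2 fold-change -1.17, standard error 0.20, adjusted p = 0.00902), *zmp-1* (-0.94, standard error 0.18, adjusted p = 0.0164), *zmp-3* (-0.71, standard error 0.16, adjusted p = 0.0213), *nas-28* (-1.27, standard error 0.29, adjusted p = 0.0234), *nas-21* (-0.86, standard error 0.24, adjusted p = 0.0425) and *nas-33* (-0.97, standard error 0.27, adjusted p = 0.0427). *nas-28* measured 17.6, 14.4 and 17.1 for wild-type, 14.4, 13.5 and 19.8 for *nhr-62*, 20.3, 27.7 and 30.6 for *eat-2* and 7.66, 10.8 and 13.2 for the double mutant, and had not been called in *eat-2* against wild-type (0.68, standard error 0.27, adjusted p = 0.0537). For *nas-7*, *zmp-1* and *zmp-3* the double mutant overlapped wild-type, and for *nas-21* it lay above wild-type. *nas-6* was lower in each double mutant library than in any *eat-2* library without passing the test (-1.53, standard error 0.52, adjusted p = 0.0718), and the pharyngeal muscle markers had a median of -0.42.

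These calls depended on single libraries. Without double mutant replicate 2, all 8 calls were lost and *nas-30* was gained, with *nas-7* at -1.07 and an adjusted p of 0.0512. Without replicate 1 or replicate 3 of the double mutant, the metalloproteases called lower were 3, as they were without *eat-2* replicate 2 or *eat-2* replicate 3. *nas-33* lost its call without any one library except wild-type replicates 1 and 2, and *nas-21* without any one except these and *eat-2* replicate 1. *nas-28* lost it without *eat-2* replicate 2 or 3 or double mutant replicate 1 or 2. The sign of each of these 8 log2 fold-changes was the same in all these fits.

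**Figure D3:**
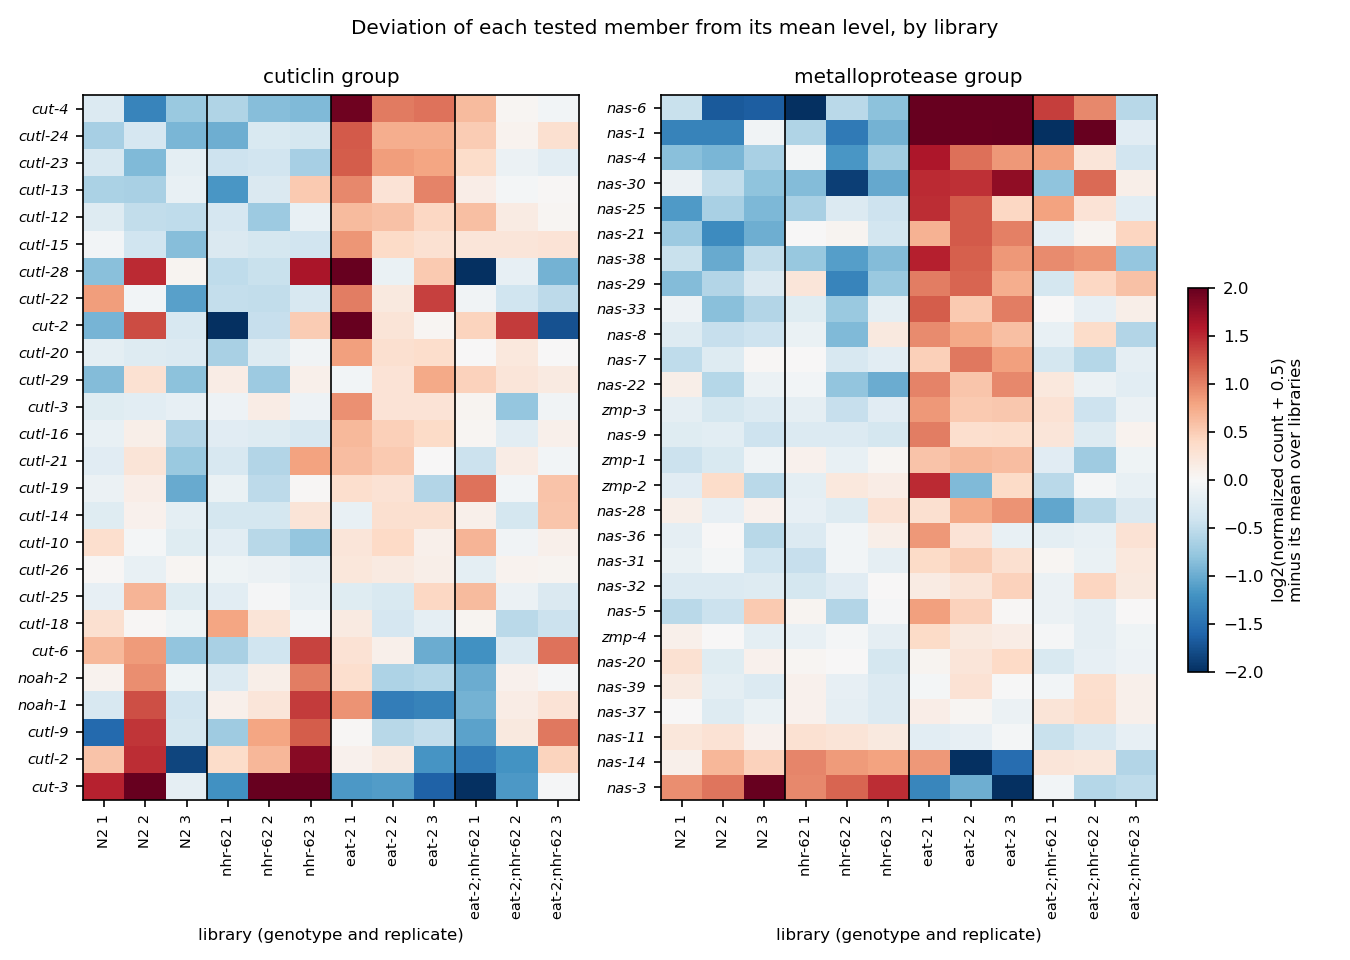
Deviation of each tested member (rows) from its own mean over the 12 libraries (columns), as log2 of normalized counts plus 0.5, red for higher and blue for lower, with colours saturating at the ends of the scale. Genes are ordered by the change in *eat-2* against wild-type, and the 3 *eat-2* columns are red for the upper genes of both groups, while *noah-1*, *noah-2* and *cut-3* at the lower left differ between libraries of the same genotype.

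Against wild-type, few members were called in the double mutant. One cuticlin was called higher and none lower, and 1 metalloprotease was called higher and 1 lower, where 5.25% of all genes were higher and 1.38% lower. At an unadjusted p under 0.05 there were 5 of 26 cuticlins and 9 of 28 metalloproteases, beside 4367 of all 15344 tested genes. DESeq2's Wald test called 3 cuticlins and 2 metalloproteases. The medians were 0.14 and 0.232, beside 0.023 over all genes. The calls were *cutl-24* (log2 fold-change 0.93, standard error 0.24, adjusted p = 0.0284), *nas-21* (1.13, standard error 0.27, adjusted p = 0.0191) and *nas-3* (-1.93, standard error 0.49, adjusted p = 0.0255). The wild-type libraries are those of the comparison with *eat-2*, so the 2 sets of values are not independent. *cut-4* at 0.94 (adjusted p = 0.0684), *nas-4* at 1.08 (adjusted p = 0.0747), *nas-25* at 1.22 (adjusted p = 0.0537) and *nas-6* at 2.06 (adjusted p = 0.0973) did not pass. *nas-11* passed the adjusted p under the fold threshold (-0.51, standard error 0.08, adjusted p = 0.00279). Without wild-type replicate 3 all 3 calls were lost, and without double mutant replicate 3 they were replaced by *nas-4*, *nas-25* and *nas-38*. *cutl-24* was also lost without wild-type replicate 1 or double mutant replicate 1, *nas-21* without wild-type replicate 2, and *nas-3* without double mutant replicate 1 or replicate 2.

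The double mutant against *nhr-62* gives the effect of the *eat-2* mutation where *nhr-62* is mutated. In this comparison 2 of 26 cuticlins were called higher and none lower, and 2 of 28 metalloproteases higher and 1 lower, where 9.46% of all genes were higher and 1.4% lower. *cut-4* (log2 fold-change 1, standard error 0.30, adjusted p = 0.0396), *cutl-24* (0.83, standard error 0.24, adjusted p = 0.0306), *nas-30* (1.61, standard error 0.44, adjusted p = 0.0254) and *nas-38* (1.44, standard error 0.41, adjusted p = 0.03) were higher, and *nas-3* was lower (-1.66, standard error 0.49, adjusted p = 0.0348). *nas-38* measured 12.3, 9.62 and 11.4 for *nhr-62* and 41.3, 39.6 and 12.2 for the double mutant, so the difference lay in replicates 1 and 2 of the double mutant. *nas-37* (0.36, standard error 0.11, adjusted p = 0.0411) and *nas-11* (-0.56, standard error 0.08, adjusted p = 0.00154) passed the adjusted p with changes under the fold threshold. At an unadjusted p under 0.05 there were 7 of 26 cuticlins and 9 of 28 metalloproteases, beside 5552 of all 15344 tested genes. DESeq2's Wald test called 4 cuticlins and 4 metalloproteases. All 5 calls were lost without *nhr-62* replicate 1 and without *nhr-62* replicate 3, and 4 of them without *nhr-62* replicate 2, double mutant replicate 1 or double mutant replicate 2. Without double mutant replicate 3, *cut-4*, *nas-3* and *cutl-24* were lost, and without wild-type replicate 3 *cut-4* was.

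Whether the *eat-2* effect differed between the wild-type and *nhr-62* backgrounds was tested by the interaction. edgeR called 0 of 26 cuticlins and 0 of 28 metalloproteases, where 0.124% of all genes were called higher and 0.137% lower. At an unadjusted p under 0.05 there were 3 of 26 cuticlins and 10 of 28 metalloproteases, beside 2193 of all 15344 tested genes. DESeq2's Wald test called no cuticlin and 3 metalloproteases, *nas-7*, *zmp-1* and *nas-21*, all negative. The shares of all genes given here are those of edgeR, and that of the Wald test was not counted. The median interaction was -0.352 over the cuticlins and -0.544 over the metalloproteases, beside -0.031 over all genes. In edgeR the smallest adjusted p-values of the metalloproteases were those of *nas-21* (log2 fold-change -1.76, standard error 0.36, adjusted p = 0.0804), *zmp-1* (-1.20, standard error 0.26, adjusted p = 0.0997) and *nas-7* (-1.24, standard error 0.28, adjusted p = 0.113). The cuticlins nearest to the threshold were *cutl-3* at -0.95 (adjusted p = 0.263), *cut-4* at -1.14 (adjusted p = 0.266) and *cutl-23* at -0.90 (adjusted p = 0.274). By edgeR, no single member thus passed a test of a different *eat-2* effect in the 2 backgrounds.

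The pair of *noah* genes varied widely between libraries of the same genotype. They encode zona pellucida proteins of the embryonic and molting apical matrix. *noah-1* measured 151, 463 and 144 for wild-type, 202, 223 and 495 for *nhr-62*, 350.5, 72.1 and 74.6 for *eat-2* and 98, 208 and 229 for the double mutant. *noah-2* measured 231, 421 and 208 for wild-type, 183, 239 and 450.2 for *nhr-62*, 280.1, 144 and 149 for *eat-2* and 110.3, 233 and 218 for the double mutant. Wild-type replicate 2, *nhr-62* replicate 3 and *eat-2* replicate 1 were the high libraries of their genotypes for both genes. Neither *noah-1* (-0.62, standard error 0.65, adjusted p = 0.429) nor *noah-2* (-0.59, standard error 0.40, adjusted p = 0.231) was called in *eat-2*, although without *eat-2* replicate 1 *noah-1* was. *cutl-9* was also highest in replicate 2 of wild-type and replicate 3 of *nhr-62*, at 2.06, 19.6 and 5.35 for wild-type and 4.1, 12.5 and 16.8 for *nhr-62*, as did *cutl-2* at 13.4, 25.8 and 2.14 for wild-type and 11.6, 14.4 and 32.8 for *nhr-62*.

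The same libraries were the highest of their genotypes for *mlt-11*, a protease inhibitor gene of the molt, at 88.8, 285 and 51.3 for wild-type, 75.2, 102 and 296 for *nhr-62* and 469.7, 33.3 and 29.4 for *eat-2*, and the double mutant measured 36.8, 225 and 97.1. *mlt-10*, another molting gene, was at 397, 57.3 and 55 for *eat-2* and 117, 120.3 and 109 for *nhr-62*, where no library stood out. *hch-1*, an astacin under another name that acts in hatching, measured 9.29, 74.2 and 5.35 for wild-type, 14.4, 26 and 73.1 for *nhr-62*, 1.19, 0 and 0 for *eat-2* and 0, 8.11 and 33.9 for the double mutant. *cut-3*, *noah-1* and *hch-1* thus shared high values in wild-type replicate 2 and *nhr-62* replicate 3. For *cut-3*, however, *nhr-62* replicate 2 (35.6) was nearly as high as *nhr-62* replicate 3 (38.1). What sets wild-type replicate 2 and *nhr-62* replicate 3 apart was not tested.

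**Figure D4:**
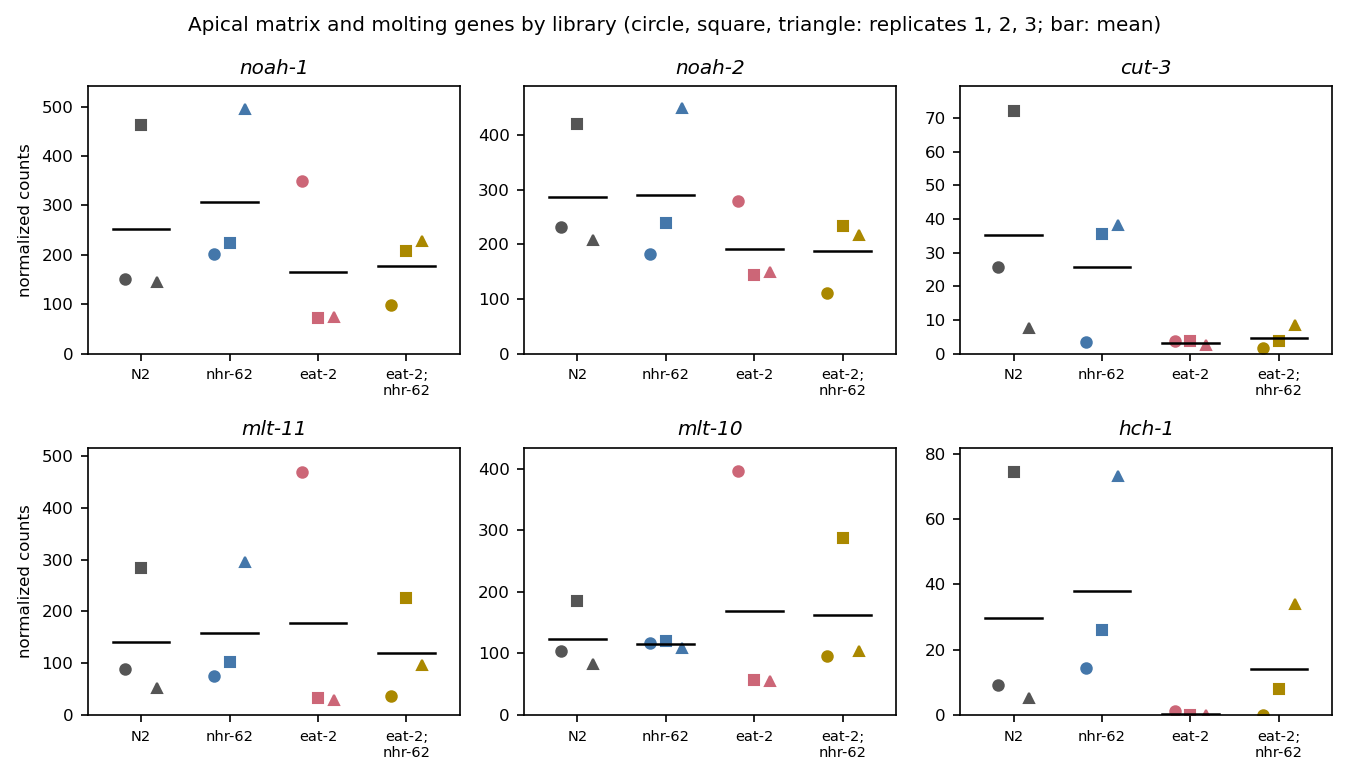
Normalized counts (vertical axis, from 0) of *noah-1*, *noah-2*, *cut-3*, *mlt-11*, *mlt-10* and *hch-1* in each library of the 4 genotypes, with circles, squares and triangles for replicates 1, 2 and 3 and a bar at the mean. Wild-type replicate 2, *nhr-62* replicate 3 and *eat-2* replicate 1 are the high points of *noah-1*, *noah-2* and *mlt-11* in their genotypes.

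The counts of calls were repeated without the library of each genotype highest in *mlt-11*, namely wild-type replicate 2, *nhr-62* replicate 3, *eat-2* replicate 1 and double mutant replicate 2, a choice made after seeing the data. In *eat-2* against wild-type 7 cuticlins (6 higher) and 15 metalloproteases (14 higher) were then called, and 20 of the 26 calls were shared. Among those lost were *cut-3*, *cutl-3* and *cutl-20*. Between the double mutant and *eat-2*, 0 cuticlins and 1 metalloprotease, *nas-7*, were called. The test then used 2 libraries of each genotype.

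The genes that work with these families were described from lists. Beside them stand all tested genes, of which 23.8% were called higher in *eat-2* and 3.61% lower, with a median log2 fold-change of 0.059. Of 22 molting regulators 2 rose in *eat-2* and 3 fell, with a median of 0, and of 10 other apical matrix genes 1 rose and 1 fell. *mlt-7*, a peroxidase that cross-links cuticle, rose (0.87, standard error 0.13, adjusted p = 0.000428) and was lower in the double mutant than in *eat-2* (-0.81, standard error 0.13, adjusted p = 0.00721). Of 6 cuticle processing enzymes 1 rose and 1 fell, with a median of -0.08. *phy-2*, a subunit of the collagen prolyl hydroxylase, fell (-0.74, standard error 0.16, adjusted p = 0.00299). *tsp-15*, which acts with the oxidase that cross-links cuticle, rose (1.08, standard error 0.13, adjusted p = 0.000172) and was lower in the double mutant (-0.64, standard error 0.13, adjusted p = 0.0171). Of 19 structural cuticle collagens 6 rose and 2 fell, with standard errors up to 2.1 on the log2 scale for *sqt-1*. Their median log2 fold-change in *eat-2* against wild-type was 2.62, with 16 positive and 3 negative. In the double mutant against *eat-2* no collagen of the list was called, and the median was -1.14, with 3 positive and 16 negative.

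The 3 astacins under other names were not called higher. *dpy-31*, the procollagen C-proteinase of the cuticle, stood at 1248 ± 176 (SD, n = 3) for wild-type and 1325 ± 320 for *eat-2*, *toh-1* at 652 ± 27.8 for wild-type and 681 ± 59.7 for *eat-2*, and *hch-1* was called lower with its wide spread among wild-type libraries given above. The inhibitors of metalloproteases related to TIMP differed in opposite directions. *timp-1* measured 134, 152 and 144 for wild-type and 93, 106 and 114 for *eat-2* (-0.46, standard error 0.15, adjusted p = 0.0231), and *cri-2* measured 492, 475 and 477 for wild-type and 583, 768 and 604 for *eat-2* (0.44, standard error 0.12, adjusted p = 0.00963), both under the fold threshold. Of 8 ADAM and ADAMTS proteases only *adt-3* was called in *eat-2*, higher (2.04, standard error 0.21, adjusted p = 6.77e-05), and it was lower in the double mutant than in *eat-2* (-1.08, standard error 0.21, adjusted p = 0.014). Over 13 basement membrane genes, the median log2 fold-change in *eat-2* was -0.08.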

How the data were processed

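The deposited values are raw counts of reads per gene, made by the authors in 12 libraries: adapters were clipped with fastx_clipper, TopHat 1.3 aligned the single-end reads to the worm genome, guided by known gene models and keeping 1 place per read, and HTSeq counted them. The authors tested them with DESeq. The sources used here do not say whether strand was used. Columns were matched to genotype and replicate by name, and no column was left out. 1 blank row was dropped. Names came from WormBase through a later annotation, which also gave exon lengths, overlaps and neighbours, so these hold for that annotation only.

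The test was edgeR 4.0.16 (R 4.3.3): filterByExpr over genotypes, TMM scaling, a single quasi-likelihood fit of all libraries by genotype, and Benjamini-Hochberg adjustment over all 15344 tested genes. Standard errors are the log2 fold-change over the root of F. Depth and replicate spread limit precision. Between pairs of libraries of a genotype, squared differences averaged over genes were 10.2 to 60.8 times what read sampling gives. That average runs over genes of the whole table, not over the members alone. Thresholds were those of the study's methods. Named genes are members with well-known roles, those with the smallest p in each comparison and the 3 highest per kilobase in each group; a few others that were called are named after their values were seen. The members of each family were taken by name, but the families and the lists were chosen with earlier results of these data known. One gene entered the list of TIMP inhibitors by mistake, is no inhibitor, and was left out. The alternatives tried were DESeq2 1.42.0 (its size factors and Wald test), total counts, other filters and thresholds, subsets of libraries and the replicate number as a block. The procedure was tested on simulated data.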

Additional observations from a re-analysis of the deposited data

Results flagged for a closer look

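For 3 members, the same mutation separated the libraries in opposite directions in the 2 backgrounds. The same was so for 1.45% of all tested genes, and the 3 members are among 54 tested. In *nas-21* every *nhr-62* library was above every wild-type library (0.90 on the log2 scale), and every *eat-2;nhr-62* library was below every *eat-2* library (-0.86). The interaction was -1.76 with an adjusted p of 0.0804 by edgeR's quasi-likelihood test with Benjamini-Hochberg adjustment, which misses the threshold, while DESeq2's Wald test called it. In *cutl-3* the corresponding values were 0.19 and -0.76, with an interaction of -0.95 (adjusted p = 0.263). In *nas-28* every *eat-2* library was above wild-type (0.68) and every *eat-2;nhr-62* library was below *nhr-62* (-0.55), with an interaction of -1.23 (adjusted p = 0.218). No cause was tested for these patterns.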

How the results depend on the processing

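No called member changed direction. Of the 42 calls over all comparisons, 42 held with total counts, 41 with DESeq2's size factors and with the replicate block (*nas-31* was lost in both), 40 with DESeq2's Wald test (*nas-31* and *cutl-13* were lost), 31 with replicates 2 and 3 only, and 12 in edgeR's test against a 1.5-fold change. Tested against a 1.5-fold change in edgeR, 3 cuticlins and 9 metalloproteases differed between *eat-2* and wild-type and 0 of either group in every other comparison. With total counts as scaling, which took the median over all genes between *eat-2* and wild-type from 0.059 to 0.284 on the log2 scale, the double mutant had 4 cuticlins and 4 metalloproteases called against wild-type, 4 and 10 against *eat-2*, and 5 cuticlins against *nhr-62*. It moved that median to 0.136, -0.145 and 0.123 in these 3 comparisons and to -0.161 in the interaction, where the split of all genes called went from 19 higher and 21 lower to 14 and 34. The calls over all genes moved as well. Against wild-type they went from 805 higher and 212 lower to 1239 and 156. Against *eat-2* they went from 120 higher and 713 lower to 72 and 1400, and against *nhr-62* from 1451 and 215 to 1961 and 161. DESeq2's Wald test called 3 cuticlins in the double mutant against wild-type, 4 against *nhr-62*, and 3 metalloproteases in the interaction. Without a filter on low counts 3 cuticlins were called in the double mutant against wild-type, and by the adjusted p alone 5 metalloproteases against *nhr-62*. With replicates 2 and 3 only, the double mutant had 2 cuticlins called against wild-type, 1 against *eat-2*, and 1 cuticlin and 1 metalloprotease against *nhr-62*. Without the libraries highest in *mlt-11*, it had 0 metalloproteases called against wild-type, 0 cuticlins and 1 metalloprotease against *eat-2*, and 1 metalloprotease against *nhr-62*.

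Replicate numbers were not taken as pairs, since not every pair correlated above 0.1: the correlation of deviations between libraries of the same number ran from -0.221 to 0.293 over 18 pairs (median 0.032), with 7 over 0.1, and between libraries of different number from -0.393 to 0.325 over 36 pairs (median -0.0395), with 5 over 0.1. With the replicate block, the double mutant had 3 cuticlins and 4 metalloproteases called against wild-type and 5 cuticlins against *nhr-62*, while the counts in *eat-2* against wild-type stayed at 10 and 16.

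Leaving out 1 library at a time gave 7 to 10 cuticlins and 15 to 20 metalloproteases in *eat-2* against wild-type. In the double mutant the ranges were 0 to 3 and 0 to 3 against wild-type, 0 to 3 and 1 to 7 against *eat-2*, and 0 to 3 and 0 to 3 against *nhr-62*. With 3 libraries a genotype, a member not called may still differ.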
